A study of Homo sapiens with 12 samples.

Results

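The 43 genes described here are ATF4, a transcription factor of the amino acid and stress response, reported ATF4 targets, and genes of amino acid supply and tRNA charging. They hold partner factors, feedback and growth-brake genes, enzymes that make serine, glycine, proline, asparagine and other amino acids, and amino acid transporters. Cytosolic synthetases that load amino acids onto tRNA, with the tRNA export factor XPOT, complete the set. The 43 genes were chosen by symbol, with no measured value in the rule but with earlier results of these data known. All 43 of 43 symbols were matched to a gene among the 61860 genes of the deposited count tables, and all 43 passed the filter on low counts in each comparison, so none was lost. The cells were 22RV1, an established human prostate cancer line grown from a xenograft tumour, cultured in RPMI-1640 with fetal bovine serum. RNA-seq read counts were analysed from 12 libraries in 4 groups of 3: ETS1 siRNA, its own controls (titled ETSnc), ZNF783 siRNA, and the separate controls of that experiment (titled 783nc). ETS1 is an ETS-family transcription factor and ZNF783 a zinc finger protein. The siRNA sequences, the nature of the control siRNA and the time of harvest are not given in the sources used here, and the series concerns RB, ETS1 and CDK4/6 inhibitors.

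ATF4 protein is made when a kinase that senses amino acid shortage, unfolded protein, missing haem or double-stranded RNA phosphorylates the initiation factor eIF2, which slows translation of most messages and speeds that of ATF4. The protein pairs with C/EBP factors on composite sites called C/EBP-ATF response elements, and the genes behind them restock the cell with amino acids and charged tRNA. Other targets, among them CHAC1, TRIB3, DDIT4 and SESN2, restrain growth or feed back on the response. Since ATF4 is controlled largely at translation, its transcript is not a measure of its protein.

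The depth was 13518177 to 48996691 counts per library. The ETS1 transcript was at or under the floor of 3 counts in every library (0, 3 and 0 counts with its siRNA and 0, 1 and 0 in the matching controls), so that its knockdown could not be measured here. ZNF783 stood at 33.8, 34.9 and 35.7 CPM (read counts brought to 1 common library size, scaled by the trimmed mean of M values) in its controls and at 28.7, 27.4 and 28.0 CPM with ZNF783 siRNA. In the ETS1 experiment it stood at 21.0, 21.6 and 22.3 CPM in the controls and at 12.5, 18.7 and 18.5 CPM with ETS1 siRNA, so that all 3 siRNA libraries lay below all 3 controls in that experiment too. Replicate 1 of the ETS1 siRNA group was unlike replicates 2 and 3, from which its counts differed with a chi-square per degree of freedom of 40.3 and 38.9, against 1.36 to 2.93 for every other pair within a group. Results of the ETS1 experiment are therefore given with and without that library. Markers of prostate luminal cells were present in each group (HOXB13, FOLH1, KRT8, KRT18 and EPCAM), while those of other cells were few. The leukocyte markers PTPRC, CD3E, CD14 and CD68 had 0 to 18 counts per library, with CD3E at 0 in all 12, the endothelial markers PECAM1, CDH5 and VWF 0 to 16, and the basal markers KRT5, KRT14 and TP63 0 to 4. Of the fibroblast markers, COL1A1 was detected in every library at 12.7 to 28.0 CPM and DCN at 3 to 62 counts, and COL1A2, COL3A1 and PDGFRB had 0 to 22 counts. The labels do not say that replicates were separate cultures, and the spread behind each p-value may therefore be technical. In bulk RNA, fewer cells expressing a gene and less of its RNA per cell cannot be told apart.

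Promoter sequence was examined because ATF4 targets among the members are held to share the ATF4 site. RefSeq windows (GRCh38.p14), 250 bases before to 50 after each start, were found for 35 of the 43 members. The motif TGATGNAA, the C/EBP-ATF element, was searched on both strands (TTNCATCA on the other). It lay in a window of 14 of the 35 members (40.0%), against 4.46% of the 27305 genes in the table. Counted by window, 14 of 56 member windows held it (25.0%), against 3.62% of 35116 windows of the same length. The 9 stretches printed here belong to the members that carry the motif and that changed in either knockdown by the tests described further on, with capitals marking the match and positions counted from the RefSeq start.
ATF3, chr1:212565180-212565259, plus strand, first base of the match at -191: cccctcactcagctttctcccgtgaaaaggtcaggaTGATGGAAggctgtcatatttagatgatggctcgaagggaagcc
CHAC1, chr15:40953251-40953280, plus strand, first base of the match at -209: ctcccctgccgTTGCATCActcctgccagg
ASNS, chr7:97872458-97872487, minus strand, first base of the match at -68: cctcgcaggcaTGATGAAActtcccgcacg
SLC3A2, chr11:62881725-62881748, plus strand, first base of the match at 37: tgcaggactccTTACATCAgctcc
SLC1A5, chr19:46784893-46784922, minus strand, first base of the match at -97: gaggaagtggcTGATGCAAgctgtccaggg
SLC7A1, chr13:29595663-29595692, minus strand, first base of the match at 7: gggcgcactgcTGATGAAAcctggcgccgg
MARS1, chr12:57488053-57488082, plus strand, first base of the match at -4: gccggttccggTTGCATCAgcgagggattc
IARS1, chr9:92293692-92293721, minus strand, first base of the match at -13: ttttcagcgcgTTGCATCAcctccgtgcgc
NARS1, chr18:57621804-57621833, minus strand, first base of the match at 14: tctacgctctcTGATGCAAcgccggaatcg
In the GENCODE 29 annotation the ATF3 match lies in no annotated gene, and the other 8 lie in an exon of the member itself that is annotated as untranslated. The ASNS match also lies in an intron of the RNA gene AC079781.5, and that of MARS1 in an intron of ARHGAP9. The remaining 5 carriers were CEBPG, AARS1, GARS1, CARS1 and TARS1. A match is a description of letters and not a binding site, and RNA counts do not show what is bound there.

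Levels between genes were compared per kilobase of exon in the control libraries. ATF4 itself stood at 176, 174 and 185 CPM per kilobase in the ETS1 controls, the highest mean of the 43, and at 184, 192 and 178 in the ZNF783 controls, where PSAT1 was above it. The serine enzyme PSAT1 was first in the ZNF783 controls (198, 189 and 199) and stood at 135, 136 and 134 in the ETS1 controls. EPRS1, the glutamyl-prolyl-tRNA synthetase, was also among the 3 highest in both, with means of 139 and 137. At the other end were VLDLR, ASNS, CTH and CARS1, with means from 0.981 to 2.65 CPM per kilobase. For ASNS, the asparagine synthetase, this value is uncertain: 1985 of its 4455 exon bases are shared in GENCODE 29 with the gene AC079781.5 on the same strand, and reads there cannot be assigned to ASNS alone. CARS1 was also the most scattered, with 12.5, 7.52 and 9.54 CPM in the ETS1 controls and 24.4, 9.75 and 14.9 CPM in the ZNF783 controls, so that changes in it could not be measured well.

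Both sets of controls are 22RV1 cells, and most members stood higher in the ZNF783 controls. Across 31 members all 3 ZNF783 controls lay above all 3 ETS1 controls, across 4 (DDIT4, CHAC1, ALDH18A1 and SHMT2) they lay below, and across 8 they overlapped. How many of all genes separate in this way was not counted, so these counts describe the members alone. Mean levels of SLC7A5 were 261 CPM in the ETS1 controls and 524 CPM in the ZNF783 controls, those of PCK2 95.9 and 207 CPM, and those of DDIT4 117 and 61.2 CPM. The 2 tables were scaled separately and differ in experiment and control, so these values are set side by side without a test, and every fold change that follows is against the controls of its own experiment.

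**Figure D1:**
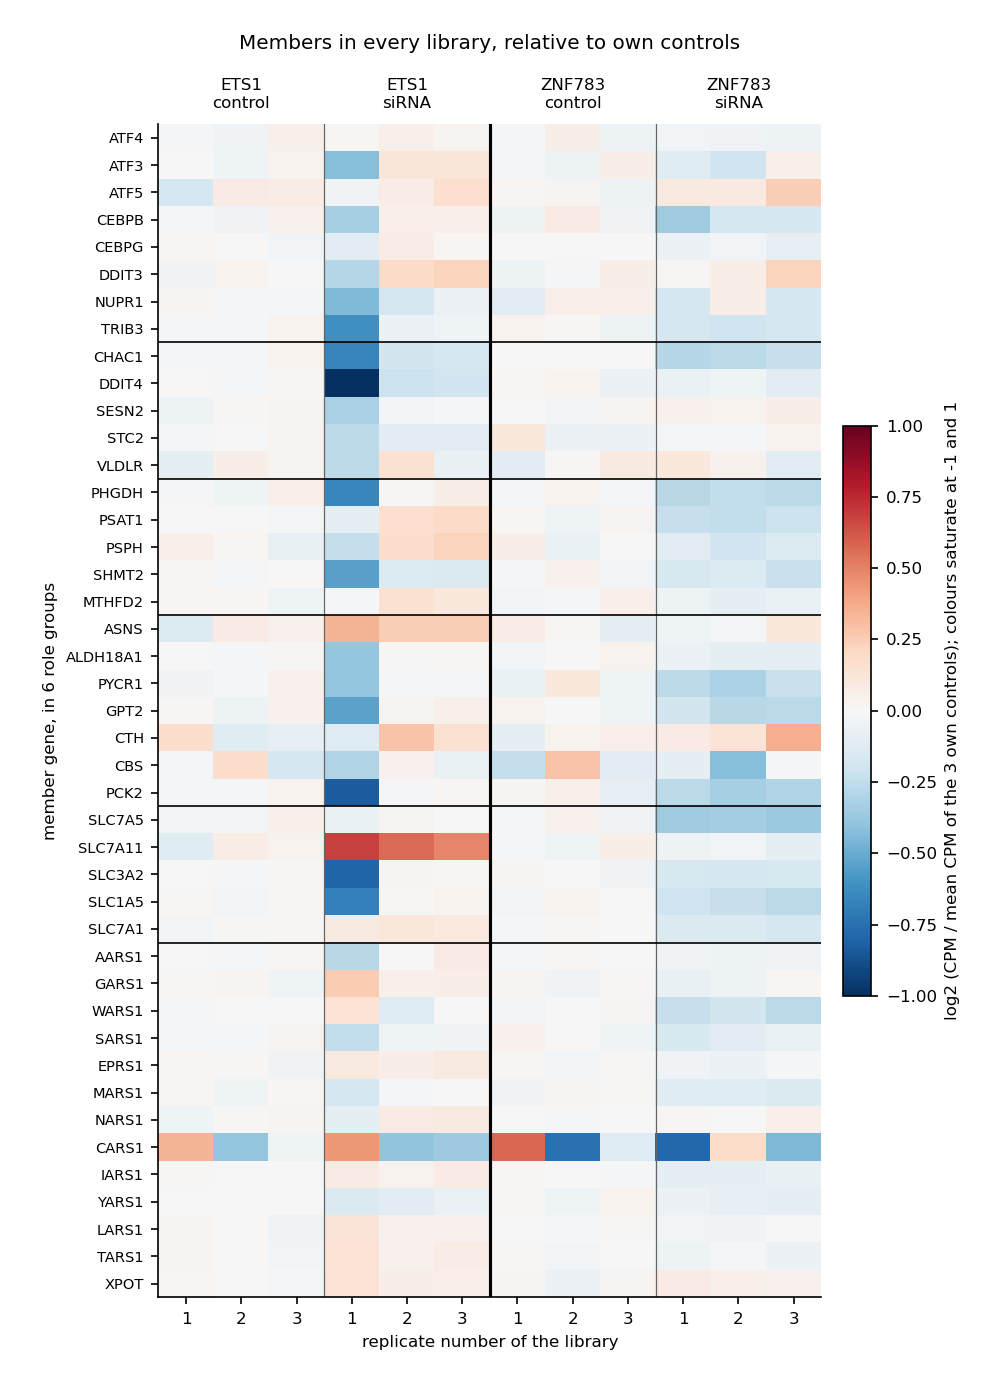
Heat map of the 43 members (rows, by role) in the 12 libraries (columns, by group and replicate number), as log2 of CPM over the mean CPM of the 3 controls of the same experiment; red is above and blue below, and colours saturate at -1 and 1. ETS1 siRNA replicate 1 is the lowest of its 6 libraries for 29 members, with the share over all genes not counted. SLC7A11 is red in all 3 ETS1 siRNA libraries, and the serine enzymes and most transporters are blue in all 3 ZNF783 siRNA libraries.

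With ZNF783 siRNA, 20 of the 43 members fell and 0 rose (edgeR quasi-likelihood test, Benjamini-Hochberg adjusted p below 0.05), where 13.8% of the 17630 genes tested were called lower and 11.3% higher. All 5 serine, glycine and folate enzymes fell, as did 4 of 5 transporters and 3 of 7 other amino acid enzymes. So did 5 of 13 synthetase and export genes and 2 of 8 transcription factors and regulators. Of 5 genes grouped as feedback and growth brakes, 1 fell. The falls were small: the largest, in the leucine transporter SLC7A5, was 0.35 on the log2 scale. The median log2 fold change was -0.09 over the members, against 0.00 over all genes tested, and 34 members were below 0. Of those above 0, 1 (XPOT) had an unadjusted p under 0.05, and DESeq2 and limma-voom also called 0 higher. For 23 members all 3 siRNA libraries lay below all 3 controls (19.8% of all genes), and for 4 all lay above (18.3%).

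ATF4 (ENSG00000128272, chr22:39519695-39522685, plus strand) did not pass the test in this experiment. Its level was 461, 483 and 448 CPM in the controls and 456, 453 and 449 CPM with ZNF783 siRNA, overlapping ranges, with a log2 fold change of -0.03 (SE 0.027, adjusted p = 0.38). CEBPB, which encodes a C/EBP partner of ATF4 (ENSG00000172216, chr20:50190734-50192689, plus strand), had 37.9, 41.5 and 38.2 CPM in the controls and 30.6, 34.7 and 34.8 CPM with the siRNA. Each siRNA library was under each control, for a log2 fold change of -0.24 (SE 0.056, adjusted p = 0.000874). TRIB3, a pseudokinase that dampens ATF4 and AKT signalling, fell by 0.18 (SE 0.031, adjusted p = 1.39e-05). CEBPG, another C/EBP partner, was at -0.05 (adjusted p = 0.21), the stress factor ATF3 at -0.10 (adjusted p = 0.163), and the stress-induced NUPR1 at -0.09 (adjusted p = 0.299), none of them past the threshold. Values for ATF5 (0.14, adjusted p = 0.185) and DDIT3, the apoptosis-linked factor CHOP (0.09, adjusted p = 0.311), were above 0 without passing.

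Among the 5 genes grouped as feedback and growth brakes was CHAC1, a glutathione-degrading enzyme and a strong ATF4 target (ENSG00000128965, chr15:40952962-40956519, plus strand). It had 83.1, 83.1 and 83.2 CPM in the controls and 68.3, 69.1 and 70.9 CPM with ZNF783 siRNA. The controls lay close together and every siRNA library was below them, for a log2 fold change of -0.26 (SE 0.038, adjusted p = 6.99e-07). DDIT4, a brake on mTORC1, was at -0.07 (adjusted p = 0.279), and SESN2, a leucine-sensing inhibitor of mTORC1, at 0.05 (adjusted p = 0.544). The secreted glycoprotein STC2 was at 0.00 (adjusted p = 0.986) and the lipoprotein receptor VLDLR at 0.02 (adjusted p = 0.86). Of these 5, CHAC1 was thus the single gene past the threshold.

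The serine route runs from the glycolytic intermediate 3-phosphoglycerate through PHGDH, PSAT1 and PSPH to serine, and on through SHMT2 and MTHFD2 to glycine and one-carbon units in mitochondria. PHGDH (ENSG00000092621, chr1:119648411-119744226, plus strand) had 344, 355 and 342 CPM in the ZNF783 controls and 286, 293 and 287 CPM with the siRNA. The gap between the groups was wider than the range within either, at -0.27 (SE 0.027, adjusted p = 1.52e-10) on the log2 scale. PSAT1 had 432, 414 and 435 CPM in the controls and 365, 361 and 369 CPM with the siRNA, again without overlap, a log2 fold change of -0.23 (SE 0.026, adjusted p = 4.63e-09). SHMT2, the mitochondrial serine hydroxymethyltransferase, fell by 0.17 (SE 0.026, adjusted p = 1.79e-06) and the phosphatase PSPH by 0.14 (SE 0.038, adjusted p = 0.00381). MTHFD2, the one-carbon enzyme after SHMT2, fell least, by 0.07 (SE 0.027, adjusted p = 0.042).

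Of the 5 transporters, SLC7A5 (LAT1), which imports leucine and other large neutral amino acids (ENSG00000103257, chr16:87830023-87869488, minus strand), had 521, 541 and 510.4 CPM in the controls and 410.4, 414 and 406 CPM with ZNF783 siRNA. Every control lay well above every siRNA library, and the fold change in log2 was -0.35 (SE 0.026, adjusted p = 1.93e-14). SLC1A5, the glutamine transporter ASCT2 (ENSG00000105281, chr19:46774883-46788594, minus strand), had 281, 293 and 286 CPM in the controls and 249, 245 and 238 CPM with the siRNA, with no overlap and a log2 fold change of -0.23 (SE 0.028, adjusted p = 1.45e-08). SLC3A2, the heavy chain that carries SLC7A5 and SLC7A11 to the membrane, fell by 0.16 (SE 0.027, adjusted p = 9.62e-06), and SLC7A1, the arginine and lysine transporter CAT1, by 0.15 (SE 0.027, adjusted p = 2.02e-05). The cystine-glutamate exchanger SLC7A11 was the exception, with 238, 233 and 250.5 CPM in the controls and 232, 236 and 226 CPM with the siRNA, overlapping ranges and a log2 fold change of -0.06 (SE 0.029, adjusted p = 0.169).

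The other amino acid enzymes divided. PCK2, the mitochondrial enzyme that makes phosphoenolpyruvate (ENSG00000100889, chr14:24094053-24110598, plus strand), had 211, 214 and 195 CPM in the controls and 172, 165 and 167 CPM with ZNF783 siRNA. PYCR1, which completes proline synthesis (ENSG00000183010, chr17:81932384-81942412, minus strand), had 129, 145 and 131 CPM in the controls and 113, 109 and 116 CPM with the siRNA. GPT2, the mitochondrial alanine aminotransferase (ENSG00000166123, chr16:46884378-46931297, plus strand), had 129.7, 126 and 123 CPM in the controls and 111, 104 and 105 CPM with the siRNA. In all 3 genes each siRNA library lay below each control, and the log2 fold changes were -0.30 (SE 0.032, adjusted p = 2.14e-09), -0.27 (SE 0.037, adjusted p = 8.3e-07) and -0.24 (SE 0.034, adjusted p = 5.02e-07) in that order. ALDH18A1, which opens proline synthesis from glutamate, was just outside the threshold at -0.08 (adjusted p = 0.0514). ASNS did not pass at 0.01 (adjusted p = 0.942), nor did the transsulphuration enzymes CTH at 0.18 (adjusted p = 0.336) and CBS at -0.16 (adjusted p = 0.629). CBS has a near-identical copy, CBSL, so its counts are uncertain.

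Among the 13 genes of tRNA charging and export, the largest fall was in the tryptophanyl-tRNA synthetase WARS1. It had 159, 161 and 164 CPM in the controls and 137, 142 and 134 CPM with ZNF783 siRNA, without overlap, at -0.23 (SE 0.031, adjusted p = 2.27e-07). The methionyl (MARS1, -0.13, adjusted p = 0.000197), seryl (SARS1, -0.11, adjusted p = 0.0046), isoleucyl (IARS1, -0.09, adjusted p = 0.00625) and tyrosyl (YARS1, -0.08, adjusted p = 0.0265) synthetases also fell. The other 8 did not pass, with log2 fold changes from -0.31 in the scattered CARS1 to 0.06 in XPOT, the tRNA export factor. Their values were -0.04 (adjusted p = 0.277) for EPRS1, -0.04 (adjusted p = 0.251) for the alanyl enzyme AARS1, -0.04 (adjusted p = 0.37) for the glycyl enzyme GARS1 and -0.03 (adjusted p = 0.543) for the leucyl enzyme LARS1. The threonyl enzyme TARS1 was at -0.04 (adjusted p = 0.256) and the asparaginyl enzyme NARS1 at 0.02 (adjusted p = 0.684).

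All 20 falls were below 0 in every alternative setting, and 15 of the 20 passed without each of the 6 libraries in turn. MTHFD2 and YARS1 failed when any 1 of 5 libraries was left out (adjusted p = 0.0501 to 0.285), SARS1 without siRNA replicate 1 (0.0858) or control replicate 1 (0.0719), and PSPH (0.0603) and IARS1 (0.0610) without control replicate 1. A fit of all 12 libraries, which takes its spread partly from the ETS1 experiment, called 4 of the 20 (SLC7A5, PSAT1, SLC7A1 and WARS1).

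Fold changes of the members ran with GC content in this experiment (Spearman -0.538 across 43 genes, against -0.377 across 17254 genes, a description across genes that share libraries). After correcting each library for GC content and exon length, 22 members fell and 2 rose (10.7% of genes lower, 9.04% higher). Of the 20 falls, 17 were kept. CEBPB (-0.08, adjusted p = 0.335), TRIB3 (-0.06, adjusted p = 0.104) and YARS1 (-0.02, adjusted p = 0.591) lost the call. The corrected fold changes were smaller by more than 1.5 times for PCK2 (-0.17), PYCR1 (-0.14), CHAC1 (-0.13), SLC1A5 (-0.11), SHMT2 (-0.10) and SLC3A2 (-0.08). They stayed close for PHGDH (-0.24, adjusted p = 3.46e-11) and WARS1 (-0.21, adjusted p = 2.64e-07), and were larger for PSAT1 (-0.28, adjusted p = 9.37e-14), IARS1 (-0.13, adjusted p = 2.71e-06) and MTHFD2 (-0.13, adjusted p = 2.5e-05). Falls in SLC7A11 (-0.14, adjusted p = 2.04e-05), CEBPG, EPRS1, LARS1 and TARS1, and rises in ATF5 (0.25, adjusted p = 0.0126) and SESN2 (0.15, adjusted p = 0.0223), passed with the correction and not without it. All 5 serine enzymes and all 5 transporters fell in that setting.

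**Figure D2:**
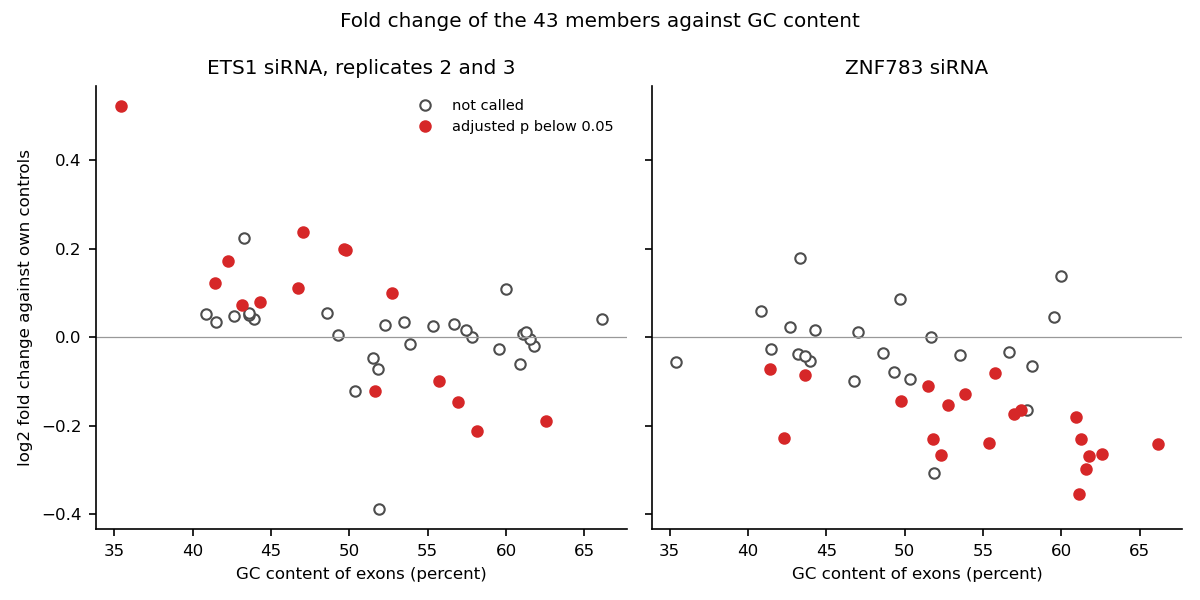
Log2 fold change against own controls (vertical axis) by GC content of the exons in percent (horizontal axis) for the 43 members, with ETS1 siRNA replicates 2 and 3 on the left and ZNF783 siRNA on the right; filled red points passed an adjusted p below 0.05 and open points did not. The points slope down in both panels (Spearman -0.599 and -0.538), and the highest point on the left is SLC7A11, which has the lowest GC content of the members, 35.4%.

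With ETS1 siRNA and all 6 libraries, 0 of the 43 members passed the edgeR test, where 0.0461% of the 19542 genes tested did; 5 members had an unadjusted p under 0.05, and the DESeq2 Wald test called 1, SLC7A11. ATF4 had 442, 437 and 465 CPM in the controls and 451, 464 and 456 CPM with ETS1 siRNA, overlapping, at 0.03 (SE 0.050, adjusted p = 0.76). Replicate 1 was the lowest of the 6 libraries for 29 members, the highest for 9 and between for 5. The matching shares over all genes were not counted, so these numbers describe the members alone. The median GC content was 53.8% for the 29 and 43.6% for the 9. For 9 members all 3 siRNA libraries lay above all 3 controls (17.5% of all genes) and for 8 they lay below (17.8%). DDIT4 was among the 8: its controls had 118, 116 and 118 CPM and the 3 siRNA libraries 51.2, 101 and 103 CPM, all below the controls, with replicate 1 far under replicates 2 and 3. SLC3A2 had 179.9, 178 and 181 CPM in the controls and 103, 183 and 182 CPM with the siRNA, where replicates 2 and 3 lay just above the controls and replicate 1 far below.

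Without replicate 1, 10 members rose and 5 fell with ETS1 siRNA (edgeR, 2 against 3 libraries), where 9.96% of 20237 genes were called higher and 13.0% lower. The risers were the cystine exchanger SLC7A11, the arginine transporter SLC7A1, 3 serine and folate enzymes (PSAT1, PSPH and MTHFD2), ASNS, the factors DDIT3 and ATF3, and the synthetases NARS1 and EPRS1. Those that fell were DDIT4, CHAC1, STC2, SHMT2 and YARS1. The median log2 fold change was 0.03 over the members and -0.00 over all genes tested. All library levels given here for the ETS1 experiment are scaled over its 6 libraries, and the fold changes in the next paragraphs leave replicate 1 out unless stated.

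SLC7A11 (ENSG00000151012, chr4:138164097-138242349, minus strand) had the largest change, with 128, 147 and 143 CPM in the controls and 223, 207 and 196 CPM in siRNA replicates 1, 2 and 3. All 3 siRNA libraries, replicate 1 included, lay far above the highest control. Its log2 fold change stood at 0.52 (SE 0.051, adjusted p = 7.19e-05) without replicate 1 and 0.58 (SE 0.075, adjusted p = 0.0738) with all 6 libraries. SLC7A1 (ENSG00000139514, chr13:29509410-29595688, minus strand) had 192, 198 and 198 CPM in the controls and 208, 212 and 209.7 CPM with the siRNA, again above in all 3, at 0.10 (SE 0.029, adjusted p = 0.0083). The other 3 transporters did not pass, with SLC7A5 at 0.01 (adjusted p = 0.888), SLC1A5 at 0.01 (adjusted p = 0.821) and SLC3A2 at 0.02 (adjusted p = 0.758).

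In the serine route the steps did not move together. PSAT1 (ENSG00000135069, chr9:78297143-78330093, plus strand) had 296, 297 and 294 CPM in the controls and 277, 332 and 338 CPM with ETS1 siRNA. Replicates 2 and 3 were above every control and replicate 1 below, with a log2 fold change of 0.17 (SE 0.028, adjusted p = 2.57e-06). PSPH (ENSG00000146733, chr7:56011051-56051604, minus strand) had 54.6, 53.3 and 50.1 CPM in the controls and 44.7, 59.5 and 61.6 CPM with the siRNA, with the same placing of replicate 1, at 0.20 (SE 0.040, adjusted p = 0.000104). MTHFD2 (ENSG00000065911, chr2:74198562-74217565, plus strand) had 288, 289 and 276 CPM in the controls and 282, 316 and 305 CPM with the siRNA, with replicate 1 inside the control range, at 0.12 (SE 0.029, adjusted p = 0.000922). SHMT2, the enzyme between them (ENSG00000182199, chr12:57229327-57234935, plus strand), went the other way, from 558, 549.5 and 555 CPM in the controls to 381, 505 and 501 CPM with the siRNA, every siRNA library lying below the controls, at -0.15 (SE 0.027, adjusted p = 3.12e-05). PHGDH, the entry enzyme, was at 0.03 (adjusted p = 0.596).

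ASNS (ENSG00000070669, chr7:97852118-97872542, minus strand) had 8.08, 9.39 and 9.15 CPM in the controls and 11.2, 10.5 and 10.5 CPM in the siRNA libraries, all 3 above the controls, at 0.24 (SE 0.080, adjusted p = 0.0231), with the same uncertainty of shared exons. The other 6 enzymes of its group did not pass, from -0.02 in PYCR1 to 0.22 in CTH. DDIT3 (ENSG00000175197, chr12:57516588-57521737, minus strand) had 27.3, 28.6 and 28.1 CPM in the controls and 22.9, 32.0 and 32.7 CPM with ETS1 siRNA, and ATF3 (ENSG00000162772, chr1:212565334-212620777, plus strand) had 45.0, 43.4 and 46.0 CPM in the controls and 33.4, 48.7 and 48.8 CPM with it. In both genes replicates 2 and 3 were above the controls and replicate 1 was below them. The log2 fold changes were 0.20 (SE 0.047, adjusted p = 0.000923) and 0.11 (SE 0.041, adjusted p = 0.0391); with all 6 libraries that of ATF3 was -0.04 (adjusted p = 0.906). ATF4 (0.03, adjusted p = 0.506), ATF5 (0.11, adjusted p = 0.389), CEBPB (0.04, adjusted p = 0.635), CEBPG (0.04, adjusted p = 0.375), NUPR1 (-0.12, adjusted p = 0.0793) and TRIB3 (-0.06, adjusted p = 0.18) did not pass.

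Of the 5 genes grouped as feedback and growth brakes, 3 fell and 0 rose. DDIT4 (ENSG00000168209, chr10:72273920-72276036, plus strand), whose library values stand above, was at -0.21 (SE 0.032, adjusted p = 7.59e-07). CHAC1 had 125, 125 and 129.8 CPM in the controls and 79.6, 111 and 112 CPM with ETS1 siRNA, all below the controls, at -0.19 (SE 0.032, adjusted p = 5.72e-06). STC2 (ENSG00000113739, chr5:173314713-173329503, minus strand) had 46.9, 47.3 and 48.3 CPM in the controls and 39.7, 43.8 and 44.0 CPM with the siRNA, also without overlap, at -0.12 (SE 0.041, adjusted p = 0.0219). SESN2 (-0.03, adjusted p = 0.762) and VLDLR (0.05, adjusted p = 0.663) did not pass. Of the 13 genes of tRNA charging and export, NARS1 (0.08, adjusted p = 0.0341) and EPRS1 (0.07, adjusted p = 0.0469) rose. YARS1 (ENSG00000134684, chr1:32775237-32818153, minus strand) fell, from 234, 234 and 236 CPM in the controls to 212, 217 and 223 CPM with every siRNA library below, at -0.10 (SE 0.029, adjusted p = 0.00844). The other 10 lay between -0.39 (CARS1) and 0.05.

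Fold changes ran with GC content here too (Spearman -0.599 across the 43 members without replicate 1, -0.361 across 19622 genes). Corrected in the same way and without replicate 1, 18 members rose and 3 fell (9.02% of genes higher, 11.2% lower). That setting, chosen after seeing the data, kept 8 of the 10 rises and 3 of the 5 falls. NARS1 (0.06, adjusted p = 0.0792), EPRS1 (0.04, adjusted p = 0.176), STC2 (-0.09, adjusted p = 0.0883) and YARS1 (-0.03, adjusted p = 0.363) lost the call. All 5 transporters rose in it, SLC7A11 by 0.40 and the others by 0.10 to 0.14, and ATF4 passed at 0.11 (adjusted p = 0.000171). The corrected falls were 0.07 for CHAC1 and SHMT2 and 0.12 for DDIT4, each smaller by more than 1.5 times, and the rise of MTHFD2 was also 0.07.

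**Figure D3:**
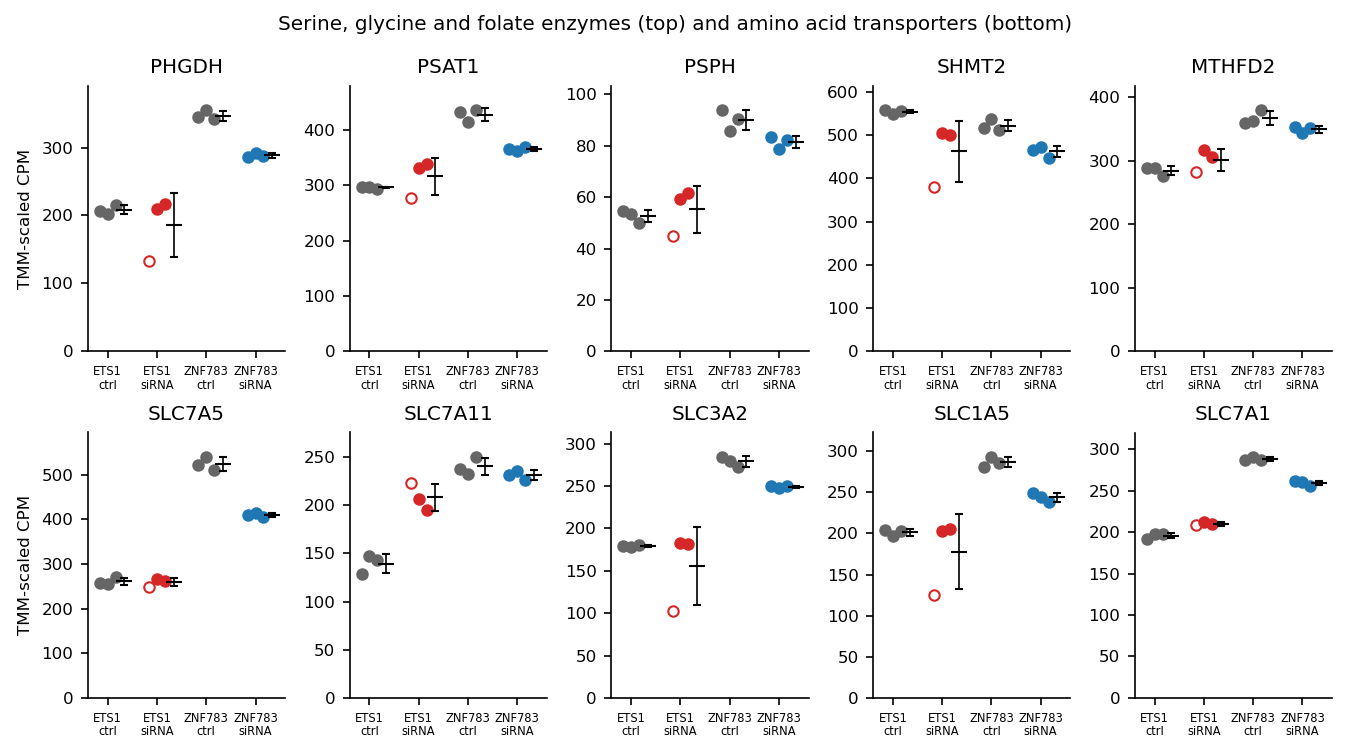
CPM scaled by trimmed mean of M values (vertical axes, from 0) of 5 serine, glycine and folate enzymes and 5 transporters in each library by group; points are libraries, the open point is ETS1 siRNA replicate 1, and the black bar is the mean ± SD of 3 libraries. ZNF783 siRNA libraries lie below their controls in all panels except SLC7A11, where they overlap; in the ETS1 experiment SLC7A11 and SLC7A1 lie above the controls in all 3 siRNA libraries.

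Whether the effects of the 2 siRNAs differed was tested directly, as the ETS1 effect minus the ZNF783 effect over all 12 libraries; the contrasts share no control library. With every library, 3 of 43 members differed, all higher in the ETS1 experiment, where 1.11% of 19594 genes were called higher and 0.577% lower. They were 3 transporters: SLC7A11 at 0.65 (SE 0.085, adjusted p = 0.00248), SLC7A5 at 0.36 (SE 0.058, adjusted p = 0.00839) and SLC7A1 at 0.27 (SE 0.049, adjusted p = 0.0152). The log2 fold changes behind them, ETS1 siRNA first, were 0.58 and -0.06 for SLC7A11, -0.01 and -0.35 for SLC7A5, and 0.10 and -0.15 for SLC7A1. The call of SLC7A1 ended without ETS1 control replicate 1 (adjusted p = 0.0619), ZNF783 siRNA replicate 1 (0.0511) or 3 (0.0591), or ZNF783 control replicate 2 (0.0509), and with no expression filter (0.101).

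Without ETS1 siRNA replicate 1, 18 members were higher in this contrast and 1, DDIT4, was lower (6.25% and 7.41% of 20018 genes). The median difference was 0.11 over the members and -0.01 over all genes tested. Those with the smallest adjusted p were PSAT1 at 0.40 (SE 0.037, adjusted p = 4.2e-12), SLC7A5 at 0.36 (SE 0.039, adjusted p = 5.19e-10), PHGDH at 0.29 (SE 0.040, adjusted p = 2.2e-07) and SLC7A1 at 0.25 (SE 0.038, adjusted p = 1.63e-06). After them came PCK2 at 0.29 (adjusted p = 5.43e-06), SLC1A5 at 0.24 (adjusted p = 7.88e-06), PSPH at 0.34 (adjusted p = 9.79e-06) and SLC7A11 at 0.58 (adjusted p = 2.29e-05). All 5 transporters and 4 of 5 serine, glycine and folate enzymes were among the 18; SHMT2, which fell in both experiments, was not (0.02, adjusted p = 0.746). Of the 18, 15 had fallen with ZNF783 siRNA and 7 had risen with ETS1 siRNA. The contrast is made of those same effects, so these counts describe it and are not separate evidence. With the GC and length correction added, 24 were higher and 1 lower (7.63% and 8.83% of genes).

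The members called in each experiment overlapped in part. Of the 15 called with ETS1 siRNA without replicate 1, 7 were also called with ZNF783 siRNA, which is 46.7% of the 15 and 35.0% of the 20. Of all 43 members, 46.5% were called with ZNF783 siRNA and 34.9% with ETS1 siRNA, so that the overlap was about equal to these shares. The share of all genes called in both was not counted. PSAT1, PSPH, MTHFD2 and SLC7A1 rose with ETS1 siRNA and fell with ZNF783 siRNA. CHAC1, SHMT2 and YARS1 fell with both, though YARS1 lost both calls with the GC and length correction. Called in neither were 15 members, among them ATF4, CEBPG, SESN2, AARS1, GARS1 and XPOT.

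**Figure D4:**
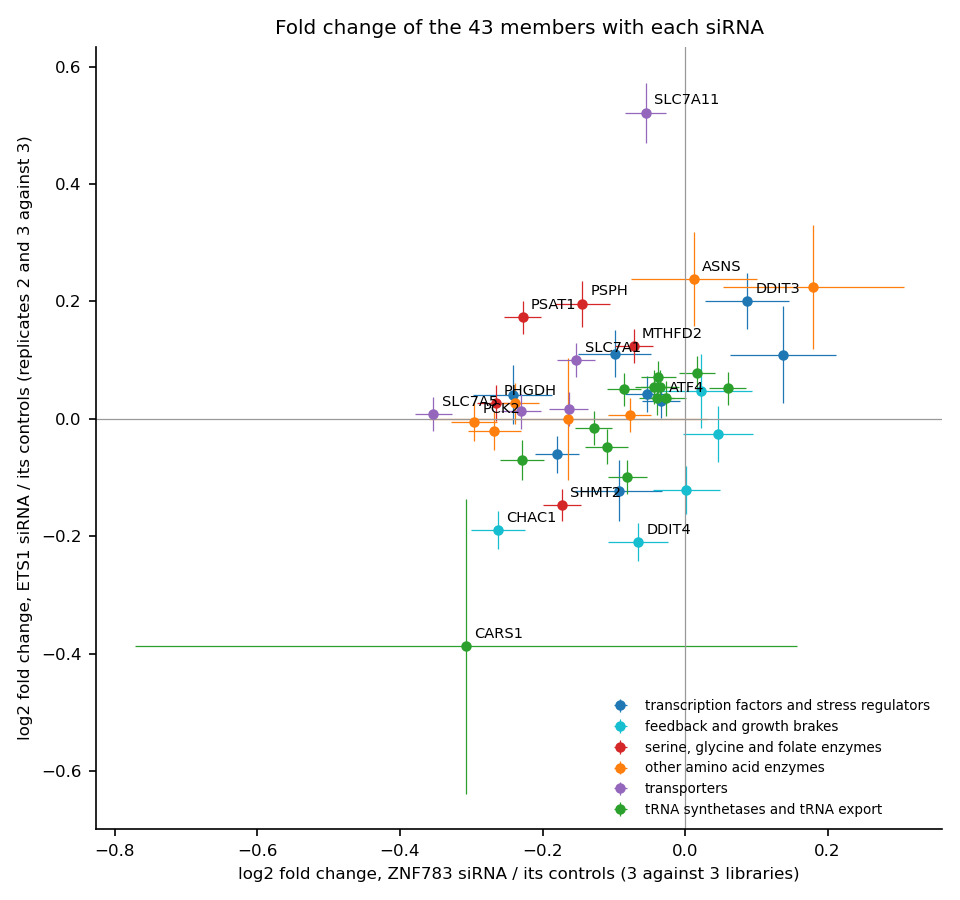
Log2 fold change with ZNF783 siRNA (horizontal axis, 3 against 3 libraries) and with ETS1 siRNA without replicate 1 (vertical axis, 2 against 3) for the 43 members, coloured by role; bars are standard errors. Most points lie left of 0, SLC7A11 stands alone at the top with a log2 fold change of 0.52 on the ETS1 axis, and CHAC1 and SHMT2 lie in the lower left quadrant.

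Members that moved stood both with and without the promoter motif. Of the 14 members with the motif, 6 fell with ZNF783 siRNA, of the 21 searched without it 9 fell, and of the 8 members without a window 5 fell. With ETS1 siRNA without replicate 1, 4 of the 14 rose (ATF3, ASNS, SLC7A1 and NARS1) and 1 fell (CHAC1). These are counts with no test, and over all genes 13.8% were called lower with ZNF783 siRNA, and 9.96% higher and 13.0% lower with ETS1 siRNA without replicate 1.

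Reads were counted without regard to strand, and 16 of the 43 members have exons that overlap a gene on the opposite strand in GENCODE 29, among them 9 of the 20 that fell with ZNF783 siRNA. The overlap is 271 bases for SLC7A5, 794 for SLC1A5, 450 for PYCR1, 231 for CEBPB and 865 for SLC7A11 (with SLC7A11-AS1). MARS1 and DDIT3 overlap each other. Reads of such pairs cannot be told apart in these counts. On the same strand, 5 members share exon bases with another gene: ASNS (1985 bases), PYCR1 (408, with MYADML2), DDIT3 (105), ATF5 (74) and MARS1 (63). PHGDH, PSAT1, PSPH, CHAC1, PCK2, GPT2, SLC3A2 and SLC7A1 have no overlap on either strand.

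Genes around the members in the pathway were counted from lists of other components. Over all genes, 9.96% were called higher and 13.0% lower with ETS1 siRNA without replicate 1, and 11.3% and 13.8% with ZNF783 siRNA; in lists this short, counts of a few genes lie near those shares and are given as a description. The kinases and phosphatases of eIF2 had 3 risers and 3 fallers of 12 with ETS1 siRNA without replicate 1, and 2 and 1 with ZNF783 siRNA. PPP1R15B, a subunit that directs eIF2 dephosphorylation, rose by 0.17 (adjusted p = 5.97e-06) with ETS1 siRNA, and EIF2AK1, the haem-regulated kinase, fell by 0.16 (adjusted p = 8.02e-06). GCN1, a partner of the amino acid-sensing kinase GCN2, fell by 0.13 (adjusted p = 0.000132) with ZNF783 siRNA. Of 22 other reported ATF4 targets tested, 3 rose and 2 fell with ETS1 siRNA without replicate 1, led by ERO1A, an oxidase of the endoplasmic reticulum (0.43, adjusted p = 2.17e-15). With ZNF783 siRNA 3 rose and 7 fell. The growth factor GDF15 was at -0.51 (adjusted p = 4.58e-09) and the translation repressor EIF4EBP1 at -0.25 (adjusted p = 8.42e-06), while the ubiquitin ligase adaptor KLHL24 was at 0.38 (adjusted p = 4.42e-09). Of the 13 other cytosolic synthetase and scaffold genes, 2 rose and 3 fell with ETS1 siRNA and 0 rose and 1 fell with ZNF783 siRNA. FARSA, a phenylalanyl-tRNA synthetase subunit, fell in both, at -0.12 (adjusted p = 0.00393) and -0.24 (adjusted p = 3.61e-07). Once libraries were corrected for GC content and exon length, FARSA lost its call with ETS1 siRNA and kept that with ZNF783 siRNA. With every library of the ETS1 experiment kept, each of these lists had 0 risers and 0 fallers with ETS1 siRNA. All adjusted p-values here are from edgeR over all genes.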

How the data were processed

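The authors deposited 1 table of whole-number read counts per gene for each knockdown, with no normalization. Per the file headers, paired-end alignments (names ending in "hisat") were counted over exons with featureCounts 2.0.1 on a GRCh38 annotation of release 107, with no strand option. The submitters' processing notes name hg38. Of 61860 genes, 61757 (99.8%) have a symbol, and 0 value columns were left unmapped. Groups came from sample titles.

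Each knockdown was fitted against its own 3 controls with edgeR 4.0.16 (R 4.3.3): default expression filter, scaling by trimmed mean of M values (TMM), robust quasi-likelihood F test, Benjamini-Hochberg adjustment over all genes tested, threshold 0.05. The difference between knockdowns was fitted over all 12 libraries. The scripts were tested on simulated data with changes larger than most given here, and with no unlike library and no GC trend. GC content and exon length came from GENCODE 29 and were corrected by smooth trends (6 degrees of freedom) in each library. The floor (3 counts) covers counting error only, while the standard errors rest on the spread between libraries. Alternatives were DESeq2 1.42.0, limma-voom 3.58.1 and the others given in the closing section.

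The members and lists were chosen with earlier results of these data known. Named with every library were ATF4 and up to 8 called members per direction and experiment with the largest fold change, and for the difference the 8 with the smallest adjusted p. Other members are given by role, and of each list up to 3 called genes. Further library values and names were added after the values were seen.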

Additional observations from a re-analysis of the deposited data

Results flagged for a closer look

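Among the 43 members, 3 transporters responded differently to the 2 siRNAs by the direct test of the difference (edgeR, all 12 libraries, ETS1 siRNA effect minus ZNF783 siRNA effect). The difference in log2 fold change was 0.65 for SLC7A11, with adjusted p = 0.00248, where all 3 ETS1 siRNA libraries lay above their controls and the ZNF783 groups overlapped. It was 0.36 for SLC7A5, with adjusted p = 0.00839, where all 3 ZNF783 siRNA libraries lay below their controls and the ETS1 groups overlapped. It was 0.27 for SLC7A1, with adjusted p = 0.0152, where all 3 ETS1 siRNA libraries lay above and all 3 ZNF783 siRNA libraries below their own controls. With the GC and length correction the differences were 0.50 (adjusted p = 0.00162) for SLC7A11, 0.43 (adjusted p = 0.00465) for SLC7A5 and 0.29 (adjusted p = 0.0049) for SLC7A1. At the threshold of 0.05 the SLC7A1 call ended in 5 settings, with no expression filter (adjusted p = 0.101) and without any 1 of 4 libraries (adjusted p = 0.0509 to 0.0619). The controls themselves differed in level between the experiments, and what part that has in the differences was not tested.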

How the results depend on the processing

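Under DESeq2 size factors, the replicate block, adjusted p below 0.01 and library size alone, the counts of members called kept within 1.5 times of the main ones, except that library size alone called 1 member higher with ZNF783 siRNA. The other counts that moved were these; the cause was not tested. With ETS1 siRNA the main counts were 0 higher and 0 lower. They became 1 higher with no expression filter, 1 with the DESeq2 Wald test, 1 in the fit of all 12 libraries, and 7 higher and 4 lower with limma-voom. Leaving out 1 library at a time gave 0 to 10 higher and 0 to 5 lower, the highest without ETS1 siRNA replicate 1. Added after seeing the data, leaving out replicate 1 gave 18 higher and 3 lower with the GC and length correction, 8 and 4 with DESeq2, 14 and 3 with library size alone, and 9 and 5 with the replicate block. With ZNF783 siRNA the correction gave 2 higher, the fit of 12 libraries 4 lower (main 20), and leaving out 1 library 15 to 20 lower. For the difference (main 3 higher, 0 lower) the counts were 5 higher with DESeq2, 18 with limma-voom, 2 to 18 higher and 0 to 1 lower when 1 library was left out, and 1 lower with no filter. Without replicate 1 they were 24 higher and 1 lower with the correction, 17 with DESeq2, 20 with library size alone and 17 with the block.

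Some members took the opposite sign and passed. With ETS1 siRNA without replicate 1, ATF3 was at 0.11, at 0.11 with the correction, 0.14 with library size alone and 0.12 with the block. With the correction also came CEBPB 0.18, PYCR1 0.094, GPT2 0.092, PCK2 0.11, SLC7A5 0.12, SLC3A2 0.10, SLC1A5 0.12 and AARS1 0.088. For the difference without replicate 1, TRIB3 was at 0.11 with the correction and 0.14 with library size alone, ALDH18A1 at 0.10 and AARS1 at 0.087 with the correction, and SLC3A2 at 0.18, 0.18 with the correction, 0.18 with DESeq2, 0.20 with library size alone and 0.18 with the block. SLC3A2 was at 0.19 with limma-voom. Leaving out 1 library at a time, ATF3 with ETS1 siRNA ranged from -0.12 to 0.11 and the difference for SLC3A2 from -0.16 to 0.18.

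Same-numbered libraries did not pair (correlations 0.054, -0.093 and 0.132 with ETS1, -0.032, -0.009 and -0.007 with ZNF783), and the replicate block called 0 members with ETS1 siRNA and 20 lower with ZNF783 siRNA. ASNS, CTH, ATF5, VLDLR and CARS1 lie below 25 CPM in every library, where depth limits precision.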

Other observations

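Other lists of amino acid supply were counted in the same way (edgeR, risers and fallers, ETS1 siRNA without replicate 1 first and ZNF783 siRNA second). Over all genes, 9.96% were called higher and 13.0% lower in the first and 11.3% and 13.8% in the second, and several of the counts lie near those shares. With every library of the ETS1 experiment kept, each list in this section had 0 risers and 0 fallers with ETS1 siRNA. Of the other amino acid transporters, 4 rose and 7 fell of 19, and 3 rose and 8 fell of 18. SLC6A6, the taurine transporter, rose with ETS1 siRNA (0.31, adjusted p = 7.78e-12) and fell with ZNF783 siRNA (-0.37, adjusted p = 5.98e-12), while SLC25A22, a mitochondrial glutamate carrier, fell with both (-0.49, adjusted p = 4.59e-17, and -0.25, adjusted p = 1.37e-07). Of the other folate and methionine genes, 3 rose and 5 fell of 19, and 3 rose and 2 fell of 18. ALDH1L2, a mitochondrial folate enzyme, was at 0.08 (adjusted p = 0.0354) and -0.15 (adjusted p = 7.00e-05). Once libraries were corrected for GC content and exon length, ALDH1L2 lost its call with ETS1 siRNA and kept that with ZNF783 siRNA. Of 16 other enzymes of glutamine, glutamate, aspartate and proline, 1 rose and 4 fell, and 1 rose and 8 fell. Glutamine synthetase (GLUL) fell with ETS1 siRNA (-0.23, adjusted p = 5.20e-07), and ornithine aminotransferase (OAT) fell with ZNF783 siRNA (-0.21, adjusted p = 1.30e-06).

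Of 27 genes by which mTORC1 senses amino acids, 2 rose and 8 fell with ETS1 siRNA without replicate 1, and 8 rose and 7 fell with ZNF783 siRNA. SESN3 (0.31, adjusted p = 1.22e-11) and SESN1 (0.43, adjusted p = 1.12e-06), relatives of the member SESN2, rose with ZNF783 siRNA. RRAGD, a Rag GTPase, rose with ZNF783 siRNA (0.28, adjusted p = 4.21e-07) and fell with ETS1 siRNA (-0.22, adjusted p = 6.66e-06). MLST8, a subunit of the complex, fell with ETS1 siRNA (-0.26, adjusted p = 3.88e-07) and with ZNF783 siRNA (-0.24, adjusted p = 2.61e-05). Once libraries were corrected for GC content and exon length, RRAGD kept both calls. MLST8 then kept its call with ETS1 siRNA and lost that with ZNF783 siRNA. Of 19 mitochondrial tRNA synthetase genes, 0 rose and 5 fell with ETS1 siRNA, and 4 rose and 1 fell with ZNF783 siRNA. Of 10 subunits of eIF2 and eIF2B, 0 rose and 2 fell, and 2 rose and 1 fell. A few genes stand in more than 1 of these lists. In the direct test of the difference over all 12 libraries, 1.11% of all genes were called higher and 0.577% lower. There SLC6A6 and the enzyme BCAT1 were called higher in the ETS1 experiment, and RRAGD, SESN1 and the enzyme GLUD1 lower. No other gene of the lists in this section passed that test.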
